A study of Mus musculus with 6 samples.

Results

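The replication-dependent histone genes encode the bulk of the protein around which DNA is wrapped. They were taken as the protein-coding genes of the mouse annotation whose symbol begins with Hist1h, Hist2h, Hist3h or Hist4h. This rule gave 67 genes, of which 64 had a row among the 42450 genes of the deposited table and 63 were among the 18905 genes with enough counts to be tested. Hist1h2bh, Hist1h2bm and Hist2h2bb had no row in the table used here and were not analysed. Hist2h3c1 did not pass the filter, with 4, 0 and 0 counts in WT and 152, 0 and 0 in Srrm2+/-. By product, 6 of the 67 genes encode the linker histone H1, 18 H2A, 18 H2B, 12 H3 and 13 H4. By place, 54 belong to the Hist1 cluster on chromosome 13, 10 to Hist2 on chromosome 3, 2 to Hist3 on chromosome 11 and 1 to Hist4 on chromosome 6.

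Total RNA was profiled in male mouse embryonic stem cells (mESC) to ask how a reduced dose of Srrm2, a splicing factor gene, alters gene expression. The 3 WT libraries came from the E14tg2a.4 line. The 3 Srrm2+/- libraries came from CG0630, a derivative of E14tg2a.4 with a gene trap that truncates 1 allele of Srrm2, and both lines were kept with LIF and moved to serum-free medium before collection. Srrm2+/- is a single gene-trap line, so the trap and any other difference between the lines cannot be told apart, and by the study's methods the replicates were batches frozen at different passages, with WT at higher passages than Srrm2+/-. Srrm2 itself stood at 91.2, 98.3 and 97.7 CPM (counts scaled to the depth of the library by the TMM method) in WT and at 62.3, 56.2 and 59.6 CPM in Srrm2+/-, a log2 fold change of -0.69 (standard error 0.05, adjusted p 2.38e-05 by edgeR).

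Replication-dependent histone mRNAs are made mainly in S phase, when new chromatin is assembled. They have no introns in their coding part and, unlike nearly all other mRNAs, end in a short stem-loop in place of a poly(A) tail. The stem-loop-binding protein SLBP, the U7 snRNP and the cleavage complex make this end, and NPAT, activated by cyclin E and CDK2, drives transcription. Stem cells divide fast and spend much of their cycle in S phase. The libraries were made from total RNA, so transcripts without a poly(A) tail were retained.

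The stem-loop was searched in the annotated transcripts on the sense strand as GG, 2 free bases, CTTTT, 1 free base, AG, 2 free bases and CC. It occurred in transcripts of 44 of the 67 genes, against 89 of 55450 genes in the whole annotation (0.161%). The models of the other 23 genes hold no match, which says only that these letters are not in the annotated transcript. The 16 bases of the element fell into 6 forms. They are shown with 5 bases on each side, with the element in capitals, because they are the feature that sets these mRNAs apart and because the forms divide by histone class.

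Hist1h1e: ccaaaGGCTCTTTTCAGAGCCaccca
Hist1h2bb: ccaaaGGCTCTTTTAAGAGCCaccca
Hist2h2ac: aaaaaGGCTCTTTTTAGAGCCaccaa
Hist1h4d: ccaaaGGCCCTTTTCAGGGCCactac
Hist1h4i: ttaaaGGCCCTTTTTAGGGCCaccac
Hist1h4b: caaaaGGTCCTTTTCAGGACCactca

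The form of Hist1h1e was the commonest, in 26 genes of the H1, H2A, H2B and H3 classes, and that of Hist1h2bb was found in 6 genes of H1, H2B and H3. Hist2h2ac alone carried the third form. All 11 H4 genes with a match used one of the last 3 forms, with the form of Hist1h4d in 7 genes, that of Hist1h4i in 2 and that of Hist1h4b in 2 (Hist1h4b and Hist1h4j). No gene of another class had these H4 forms.

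Promoters of 61 of the 67 genes were available from RefSeq (GRCm38.p6), as 250 bases before and 50 bases after each start. CCAAT, the box bound by NF-Y, was present on either strand in 52 of 61 histone promoters (85.2%) and in 37.4% of all 32851 promoters. It was found in all 6 H1, 17 H2A, 16 H2B and 10 H3 promoters, but in 3 of 12 H4 promoters. TATAAA was present in 35 promoters (57.4%, against 13.6% of all promoters). The octamer ATTTGCAT, bound by POU factors such as OCT1, was present in 13 (21.3%, against 1.74%), of which 7 were H2A and 6 were H2B promoters. Windows of neighbouring H2A and H2B genes on opposite strands can overlap, as for Hist1h2aa and Hist1h2ba. A single octamer or CCAAT box can then be counted for both genes. CACGTG, the E-box, was found in 0 of 61 histone promoters and in 7.15% of all promoters. The promoters of the H1, H2B and H4 genes with the largest called changes are shown, with CCAAT and TATAAA of either strand in capitals. They lie at chr13:23622509-23622808 (minus strand, Hist1h1e), chr11:58948661-58948960 (plus strand, Hist3h2ba) and chr13:23756687-23756986 (plus strand, Hist1h4b).

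Hist1h1e: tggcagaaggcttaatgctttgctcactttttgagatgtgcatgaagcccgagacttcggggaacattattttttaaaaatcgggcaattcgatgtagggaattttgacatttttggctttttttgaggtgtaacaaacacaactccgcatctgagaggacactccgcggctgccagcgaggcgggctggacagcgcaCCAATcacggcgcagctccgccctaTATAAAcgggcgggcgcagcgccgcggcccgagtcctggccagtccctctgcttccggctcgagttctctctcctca
Hist3h2ba: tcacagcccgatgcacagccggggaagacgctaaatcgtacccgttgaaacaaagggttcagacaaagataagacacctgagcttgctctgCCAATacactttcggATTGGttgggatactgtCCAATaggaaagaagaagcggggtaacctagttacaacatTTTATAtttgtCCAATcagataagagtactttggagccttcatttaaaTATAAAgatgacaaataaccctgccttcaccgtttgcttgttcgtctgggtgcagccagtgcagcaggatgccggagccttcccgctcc
Hist1h4b: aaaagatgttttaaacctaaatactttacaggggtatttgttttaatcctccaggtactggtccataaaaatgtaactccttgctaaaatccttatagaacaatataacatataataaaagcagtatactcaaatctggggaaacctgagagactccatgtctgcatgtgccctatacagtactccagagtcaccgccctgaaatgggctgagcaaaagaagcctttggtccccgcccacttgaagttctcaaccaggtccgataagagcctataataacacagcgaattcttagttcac

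The promoters of Hist1h1e and Hist3h2ba hold both boxes, and that of Hist1h4b holds neither, so the 3 genes share none of the 4 motifs searched. A match is a description of the sequence and not a measured binding site.

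As a whole, the histone mRNA pool did not differ between the genotypes by more than the spread between replicates. Summed over the 63 tested genes, the level was 19314, 21618 and 23427 CPM in WT and 23017, 21685 and 19307 CPM in Srrm2+/-. The means were 21453 ± 2062 and 21337 ± 1879 CPM (SD, n = 3 each), a ratio of 0.995, and the groups overlapped. Histone genes took between 1.95% and 2.32% of all counts in a library.

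Of the 63 genes, 8 rose and 2 fell in Srrm2+/- (edgeR adjusted p under 0.05), and 53 did not pass the test. Among all 18905 genes tested, 25.3% were called, with 13.6% higher and 11.7% lower. The share of histone genes called was 15.9%, below that of all genes and below the 29.7% of the 710 genes whose level was at or above the histone median. The median log2 fold change of the histone genes was 0.02, beside a median of -0.0025 over all genes, and the median size of the change regardless of sign was 0.11 for histone genes and 0.19 for all genes. In 10 of the 63 genes the CPM of the groups did not overlap, against 41.4% of all genes. The 95% interval of the log2 fold change lay within ±0.5 for 50 genes and within ±1 for 58. The counts depended on single libraries. They became 5 higher and 7 lower without WT replicate 1, 5 and 0 without WT replicate 2, 10 and 0 without WT replicate 3, 3 and 2 without Srrm2+/- replicate 1, 4 and 0 without Srrm2+/- replicate 2, and 5 and 0 without Srrm2+/- replicate 3.

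**Figure D1:**
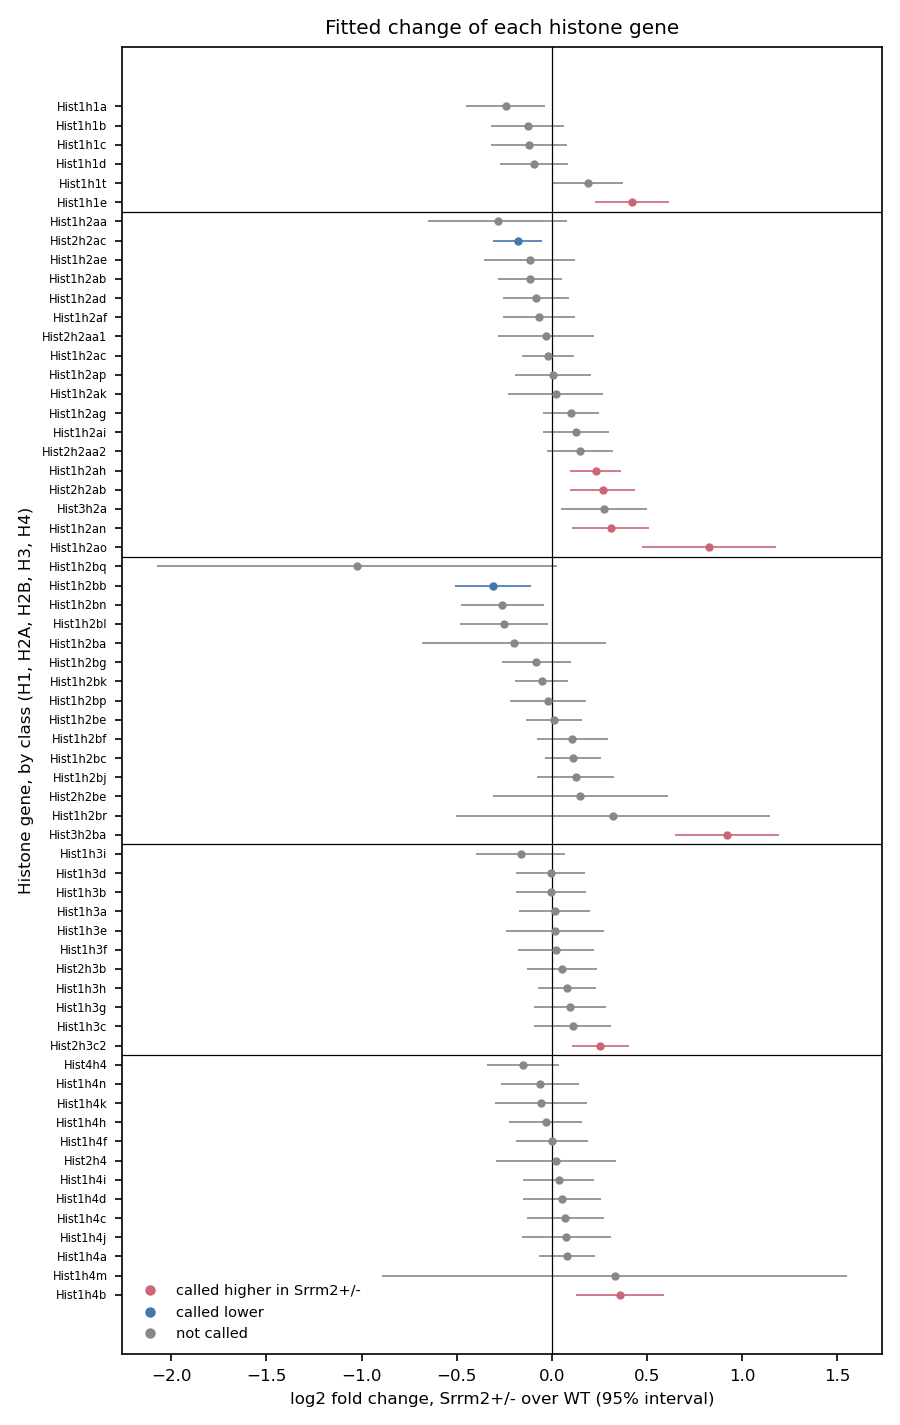
Log2 fold change of each of the 63 tested histone genes (x axis, Srrm2+/- over WT, edgeR fit) with its 95% interval, grouped by class on the y axis. The 8 genes called higher and 2 called lower are coloured, and 50 of the 63 intervals lie within ±0.5.

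Histone genes deviated together from library to library, whatever their class. Within WT, 53 of the 63 genes were lowest in replicate 1 and 55 were highest in replicate 3. Within Srrm2+/-, 45 were highest in replicate 1 and 55 were lowest in replicate 3. The median deviation from the 6-library mean was -0.16, 0.01 and 0.11 in WT and 0.12, 0.04 and -0.12 in Srrm2+/- (log2 scale). The median standard error of the histone genes was 0.087 on the log2 scale, against 0.117 over all genes tested. It was 0.045 for genes at or above the histone median level, a cut that the lower histone genes do not meet. The share of counts from genes annotated as snoRNA, snRNA, scaRNA or miscellaneous RNA was also lowest in the same libraries of each group. The share was 8.90% in WT replicate 1 and 9.05% in Srrm2+/- replicate 3, and lay between 9.79% and 10.8% in the other 4. It was highest in WT replicate 2 (10.8%) and Srrm2+/- replicate 2 (10.6%), where most histone genes were not highest. Its part in the histone levels was not tested. In bulk RNA, fewer cells in S phase and less histone mRNA per cell cannot be told apart.

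**Figure D2:**
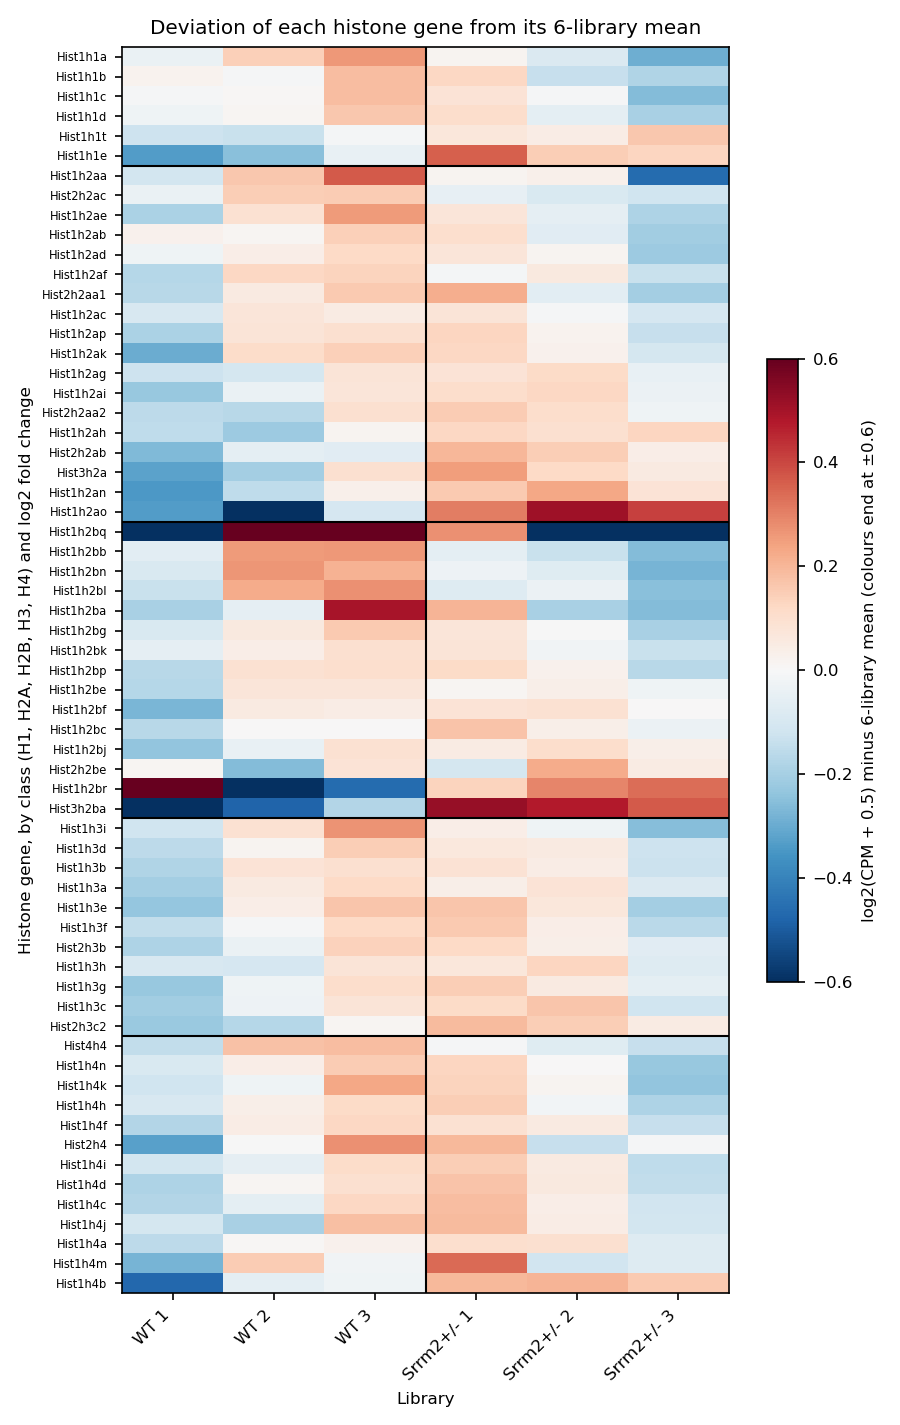
Deviation of each histone gene (rows, by class) from its own mean over the 6 libraries (columns), as log2(CPM + 0.5). Most rows are blue in WT replicate 1 and Srrm2+/- replicate 3 and red in WT replicate 3 and Srrm2+/- replicate 1. Hist1h1e, Hist1h2ao and Hist3h2ba are among the genes that are higher in all 3 Srrm2+/- libraries than in any WT library.

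The summed levels of the 5 classes followed the same order of libraries and overlapped between the genotypes in each class. H3 genes summed to 4736, 5379 and 5880 CPM in WT and 5807, 5605 and 4887 CPM in Srrm2+/-. H2A genes summed to 4134, 4681 and 5061 CPM in WT and 5140, 4896 and 4449 CPM in Srrm2+/-. The ratios of the Srrm2+/- mean to the WT mean were 0.934 for H1, 1.04 for H2A, 0.938 for H2B, 1.02 for H3 and 1.00 for H4.

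**Figure D3:**
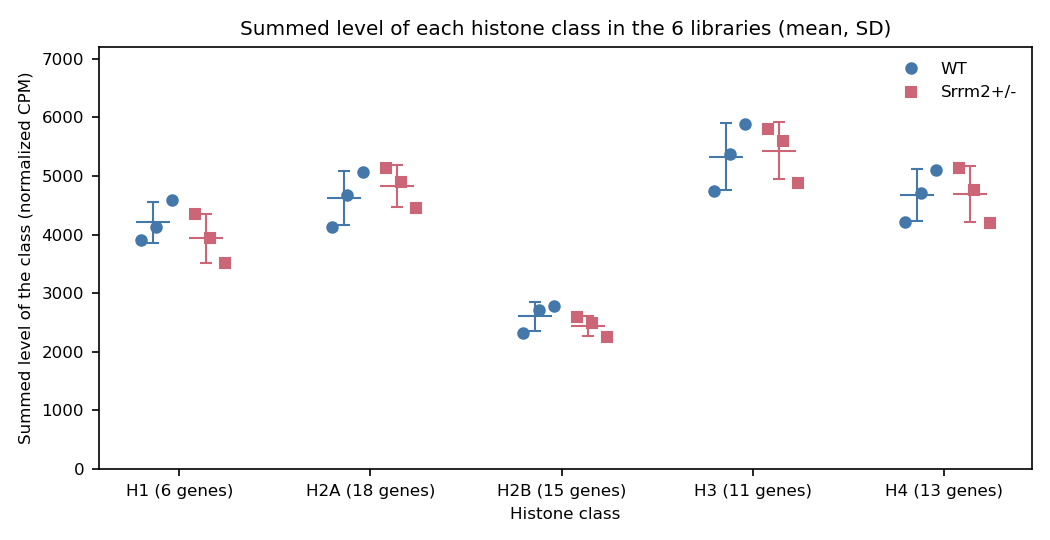
Summed normalized CPM of the tested genes of each histone class (x axis) in each library, with WT as circles and Srrm2+/- as squares, and the mean and SD of each group as bars. The groups overlap in all 5 classes, and WT replicate 1 and Srrm2+/- replicate 3 are the lowest libraries of their group in each.

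Expressed as a share of the summed histone counts of a library, the classes varied little between the replicates of a group. H1 genes held 20.2%, 19.1% and 19.6% of the pool in WT and 18.9%, 18.1% and 18.2% in Srrm2+/-. The H1 genes did not all move alike. From WT to Srrm2+/-, the mean share of Hist1h1a went from 6.57% to 5.58% and that of Hist1h1e from 1.59% to 2.15%. Hist1h1b, Hist1h1c and Hist1h1d had lower means by smaller amounts, and Hist1h1t a higher one. H2A genes held 21.4%, 21.7% and 21.6% in WT and 22.3%, 22.6% and 23.0% in Srrm2+/-. The H1 share was lower and the H2A share higher in all 3 Srrm2+/- libraries than in any WT library. H2B was lower without overlap, at 12.2% ± 0.351 in WT and 11.5% ± 0.212 in Srrm2+/-, and H3 higher, at 24.8% ± 0.294 and 25.5% ± 0.333 (SD, n = 3 each). The H4 share overlapped, at 21.8% ± 0.0123 and 22.0% ± 0.291. These shares add up to the whole and are not independent of each other, and they were looked at after the common deviation had been seen, so they are given without a test. On this scale, made from the histone genes' own counts, 28 of the 63 genes and 25.1% of all genes did not overlap between the groups. As CPM, these were 10 of the 63 and 41.4%. Dividing by the histone sum takes the common deviation out of the histone genes and puts it into all other genes. The histone count and the share of all genes therefore cannot be compared on this scale. With libraries scaled in this way, edgeR called 4 histone genes higher (Hist1h1e, Hist1h2ao, Hist3h2ba and Hist1h4b) and 1 lower (Hist1h2bq).

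Linker histones bind the DNA between nucleosomes and compact chromatin, and of their 6 genes 1 rose and 0 fell, with a class median of -0.11. Hist1h1e (H1.4, chromosome 13, 23620629 to 23622558, minus strand) stood at 312, 331 and 383 CPM in WT and at 506, 437 and 431 CPM in Srrm2+/-. All 3 Srrm2+/- libraries were above the WT libraries, by a log2 fold change of 0.42 (standard error 0.09, adjusted p 0.00676 by edgeR). The call held in all 16 other fits at this threshold, with log2 fold changes between 0.34 and 0.51.

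The most abundant linker histone by level per length was Hist1h1a (H1.1), at 1256, 1426 and 1549 CPM in WT and 1306, 1218 and 1053 CPM in Srrm2+/-. Its groups overlapped, with a log2 fold change of -0.24 (standard error 0.09, adjusted p 0.0876 by edgeR), and without WT replicate 1 it was called lower, at -0.32. The levels of Hist1h1d (H1.3) were 1124, 1155 and 1281 CPM in WT and 1234, 1102 and 1003 CPM in Srrm2+/-. For Hist1h1c (H1.2), they were 804, 810 and 919 CPM in WT and 854, 803 and 673 CPM in Srrm2+/-. Both overlapped and neither passed the test, with log2 fold changes of -0.09 and -0.12. Hist1h1b (H1.5) stood at 407, 399 and 456 CPM in WT and 437, 365 and 354 CPM in Srrm2+/-, a log2 fold change of -0.13 that did not pass, though it was called lower, at -0.23, without Srrm2+/- replicate 1. Hist1h1t, the testis linker histone, was low, at 7.60, 7.54 and 8.25 CPM in WT and 8.76, 8.61 and 9.38 CPM in Srrm2+/-. Its groups did not overlap, but the difference did not pass the test (log2 fold change 0.19, SE 0.08, edgeR adjusted p 0.120).

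Kallisto, which made the counts, assigns reads by 31-base words, so the share of a gene's words found in no other gene tells how far its count is its own. For Hist1h1e 65.3% of the words are its own, and 24.5% also occur in transcript models of Hist1h2be, which overlap its 3′ end. The predicted gene Gm11398, whose level was not looked at, holds 15.3% of the words of Hist1h1e. Hist1h2be was at 190, 224 and 225 CPM in WT and 216, 219 and 210 CPM in Srrm2+/-, overlapping, with a log2 fold change of 0.01. Annotated tails differ too. The Hist1h1e model runs 1153 bases past its stem-loop, and gene totals do not tell RNA that ends at the stem-loop from RNA that runs on. Of the 20 tested genes whose model continues more than 100 bases past the stem-loop, 3 were called higher and 0 lower, and of the 21 that end within 100 bases, 2 were higher and 2 lower.

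Among the 18 H2A genes, 4 rose and 1 fell, with a class median of 0.01. Those of highest level per length were Hist1h2ai, Hist1h2ap and Hist2h2aa2, and none of them passed the test. Hist1h2ai stood at 889, 1014 and 1096 CPM in WT and 1121, 1137 and 1018 CPM in Srrm2+/- (log2 fold change 0.13). Hist2h2aa2 stood at 583, 580 and 694 CPM in WT and 722, 699 and 638 CPM in Srrm2+/- (log2 fold change 0.15), and it was called higher, at 0.24, without WT replicate 3. The groups of both overlapped. Hist2h2aa2 has 0 words of its own, since all of them also occur in Hist2h2aa1 and in the predicted gene Gm20634, so its count is a division of shared reads. The sum of Hist2h2aa1 and Hist2h2aa2 was 895, 943 and 1085 CPM in WT and 1128, 1034 and 941 CPM in Srrm2+/-, with overlap and a log2 ratio of 0.09.

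Hist1h2ao (chromosome 13, 21810465 to 21810944, plus strand) had the largest called H2A change, from 9.91, 7.09 and 11.8 CPM in WT to 15.8, 18.2 and 17.0 CPM in Srrm2+/-. All Srrm2+/- libraries were higher (log2 fold change 0.83, SE 0.16, edgeR adjusted p 0.0047), and the call held in all 16 other fits. Yet 93.8% of its words also occur in Hist1h2ap, which was far more abundant, at 855, 1029 and 1043 CPM in WT and 1067, 990 and 885 CPM in Srrm2+/-. The sum of the pair was 865, 1036 and 1055 CPM in WT and 1083, 1008 and 902 CPM in Srrm2+/-, with overlap and a log2 ratio of 0.02. Hist1h2ao is therefore uncertain as a change of its own gene.

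The other H2A calls were small. Hist1h2an rose from 30.2, 34.6 and 39.4 CPM to 42.9, 45.3 and 40.8 CPM (log2 fold change 0.31, SE 0.09, edgeR adjusted p 0.032). Hist2h2ab rose from 13.1, 15.2 and 15.1 CPM to 18.3, 17.6 and 16.3 CPM (log2 fold change 0.27, SE 0.08, edgeR adjusted p 0.0307). Neither overlapped between the groups. Of the words of Hist2h2ab, 33.6% are its own and 66.2% occur in the predicted gene Gm15444, which had at most 2 counts in a library. Hist1h2ah, named after its values were seen because it completes the called genes, rose from 164, 157 and 185 CPM to 199, 195 and 200 CPM (log2 fold change 0.23, SE 0.06, edgeR adjusted p 0.0189), again without overlap. Hist2h2ac, which shares 51.4% of its words with other histone genes, fell from 55.9, 63.7 and 63.9 CPM to 55.4, 54.0 and 52.9 CPM. The groups were kept apart by a gap of less than 1 CPM between WT replicate 1 and Srrm2+/- replicate 1 (log2 fold change -0.18, SE 0.06, edgeR adjusted p 0.049). Hist1h2an lost its call without any one of WT replicate 1, WT replicate 2 or the 3 Srrm2+/- libraries, with 0.22 to 0.41 over all other fits. Hist2h2ab lost it without WT replicate 1, Srrm2+/- replicate 1 or Srrm2+/- replicate 2 (0.20 to 0.31), and Hist1h2ah without WT replicate 1, WT replicate 2, Srrm2+/- replicate 1 or Srrm2+/- replicate 3 (0.18 to 0.30). For Hist2h2ac it was lost in 9 of the 16 other fits, on leaving out any library but WT replicate 1 and also with limma voom, with a filter of at least 1 count, with the replicate number as a block and with scaling by histone counts (-0.24 to -0.14). Scaling by histone counts also ended the calls of Hist1h2an, Hist2h2ab and Hist1h2ah, and the replicate block that of Hist2h2ab. Only 11.0% of the words of Hist1h2an and 7.47% of those of Hist1h2ah are their own. These 2 genes and Hist1h2ad, Hist1h2af, Hist1h2ag and Hist1h2ai form a group linked by at least 80% shared words, and the sum of the 6 genes was 1372, 1532 and 1662 CPM in WT and 1684, 1707 and 1547 CPM in Srrm2+/-. That sum overlapped, with a log2 ratio of 0.11, so both calls are uncertain as changes of single genes.

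Of 15 H2B genes, 1 rose and 1 fell, with a class median of -0.02. Hist3h2ba (chromosome 11, 58948920 to 58949533, plus strand), a low H2B gene outside the 2 main clusters, showed the largest called change of all 63 genes. Its level was 11.9, 14.1 and 17.5 CPM in WT and 28.8, 27.8 and 25.8 CPM in Srrm2+/-. Every Srrm2+/- library was above every WT library, by a log2 fold change of 0.92 (standard error 0.12, 95% interval 0.65 to 1.19, adjusted p 0.00066 by edgeR). The call held in all 16 other fits, with 0.80 to 1.08. Of its words 62.8% are its own and 32.9% occur in the neighbouring pseudogene Hist3h2bb-ps, which was called higher too, with a WT mean of 3.77 ± 0.561 and an Srrm2+/- mean of 5.31 ± 0.757 CPM (SD, n = 3 each), by 0.49 on the log2 scale (edgeR adjusted p 0.042). Hist3h2a, the other Hist3 gene, named after its values were seen, stood at 158, 171 and 211 CPM in WT and 234, 214 and 204 CPM in Srrm2+/-, with overlap (log2 fold change 0.28, edgeR adjusted p 0.0752). It passed, higher, without WT replicate 3 and with a filter of at least 1 count.

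Hist1h2bb, which was among the most abundant H2B genes per length, fell from 366, 457 and 459 CPM to 367, 348 and 319 CPM (log2 fold change -0.31, SE 0.09, edgeR adjusted p 0.0318). The groups overlapped through WT replicate 1, and the call was lost without WT replicate 2, WT replicate 3, Srrm2+/- replicate 2 or Srrm2+/- replicate 3, with the replicate block and with scaling by histone counts (-0.41 to -0.25 over all other fits). Hist1h2bg stood at 590, 655 and 702 CPM in WT and 662, 629 and 549 CPM in Srrm2+/- (log2 fold change -0.08). Hist1h2bk stood at 331, 354 and 368 CPM in WT and 363, 339 and 313 CPM in Srrm2+/- (log2 fold change -0.05). Both overlapped and did not pass.

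The largest fitted fold change of all belonged to Hist1h2bq, at -1.03 (SE 0.46, edgeR adjusted p 0.147), which was singled out after its values were seen. Its levels were 15.7, 60.6 and 52.8 CPM in WT and 32.8, 15.1 and 15.4 CPM in Srrm2+/-. Hist1h2br, which holds 98.3% of the words of Hist1h2bq, moved opposite to it in every library but Srrm2+/- replicate 1, where both were above their own 6-library mean, with 58.6, 16.8 and 25.3 CPM in WT and 38.5, 43.1 and 44.3 CPM in Srrm2+/-. The sum of the pair varied far less, at 74.3, 77.4 and 78.1 CPM in WT and 71.4, 58.2 and 59.7 CPM in Srrm2+/-, without overlap and with a log2 ratio of -0.28. Without WT replicate 1, edgeR called Hist1h2bq lower and Hist1h2br higher. The 2 genes are reported as uncertain, since the counting could divide their shared reads either way.

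**Figure D4:**
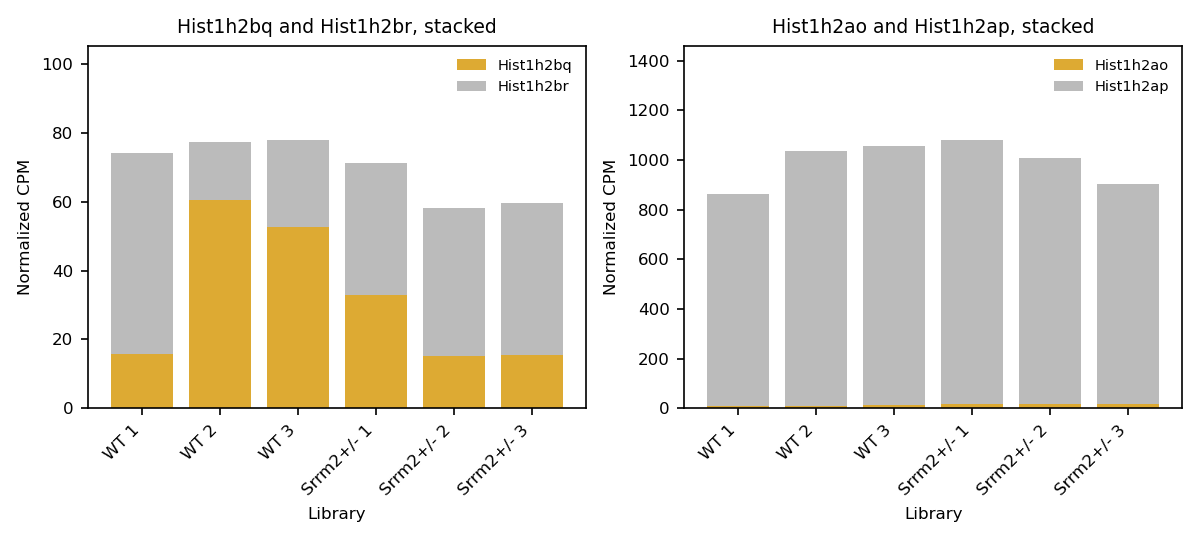
Normalized CPM of Hist1h2bq and Hist1h2br (left) and of Hist1h2ao and Hist1h2ap (right), stacked, in each library. The part given to Hist1h2bq ranges from 15.1 to 60.6 CPM while the sum of the pair stays between 58.2 and 78.1 CPM, and Hist1h2ao is a thin strip at the base of its pair.

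H3 and H4 genes, whose products form the tetramer at the core of the nucleosome, had 1 of 11 and 1 of 13 genes called, both higher, with class medians of 0.02 and 0.04. The H3 genes of highest level per length were Hist1h3i, Hist1h3e and Hist1h3h, with log2 fold changes of -0.16, 0.02 and 0.08. Their levels overlapped between the groups. Hist1h3e, for example, was at 872, 1053 and 1148 CPM in WT and 1148, 1075 and 889 CPM in Srrm2+/-. Hist1h3i was at 624, 722 and 817 CPM in WT and 698, 666 and 568 CPM in Srrm2+/-, and Hist1h3h at 461, 458 and 519 CPM in WT and 516, 538 and 467 CPM in Srrm2+/-.

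The sole H3 call was Hist2h3c2 (chromosome 3, 96238108 to 96239127, minus strand), at 301, 313 and 355 CPM in WT and 402, 390 and 364 CPM in Srrm2+/-. The groups did not overlap (log2 fold change 0.26, SE 0.07, edgeR adjusted p 0.0205). It was lost without WT replicate 1, WT replicate 2, Srrm2+/- replicate 1 or Srrm2+/- replicate 2, with the replicate block and with scaling by histone counts (0.21 to 0.33). Of its words, 35.8% are its own and 64.2% occur in Hist2h3c1 and in the predicted gene Gm20634, which was at 3.03 to 5.73 CPM. The sum of Hist2h3b, Hist2h3c1 and Hist2h3c2 was 557, 596 and 675 CPM in WT and 721, 689 and 641 CPM in Srrm2+/-, with overlap and a log2 ratio of 0.17, so this call too is uncertain as a change of a single gene. All words of Hist2h3b lie in the predicted gene Gm20628 as well, so the count of Hist2h3b is an estimate throughout.

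Among H4 genes, Hist1h4b (chromosome 13, 23757013 to 23757409, plus strand) rose from 67.1, 89.5 and 91.7 CPM to 107, 108 and 104 CPM. Its groups did not overlap (log2 fold change 0.36, SE 0.10, edgeR adjusted p 0.0305). The call was lost when any one Srrm2+/- library was left out (0.23 to 0.44), and 22.9% of its words are its own. Of the words of Hist1h4b, 55.9% also occur in Hist1h4a and 53.1% in the gene 4930558J22Rik. Hist1h4a was more abundant, at 315, 353 and 358 CPM in WT and 376, 376 and 333 CPM in Srrm2+/-, with overlap. The call of Hist1h4b is therefore also uncertain as a change of a single gene. Hist1h4j, which has the same stem-loop form, was at 66.8, 62.7 and 81.5 CPM in WT and 82.1, 74.0 and 66.4 CPM in Srrm2+/-, with overlap and a log2 fold change of 0.08. The H4 genes of highest level per length were Hist1h4n, Hist1h4k and Hist1h4h, with log2 fold changes of -0.06, -0.06 and -0.03. They overlapped between the groups, with Hist1h4n at 670, 733 and 794 CPM in WT and 780, 714 and 610 CPM in Srrm2+/-. For Hist1h4k the levels were 474, 506 and 604 CPM in WT and 564, 521 and 437 CPM in Srrm2+/-, and for Hist1h4h 518, 569 and 600 CPM in WT and 614, 548 and 488 CPM in Srrm2+/-.

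**Figure D5:**
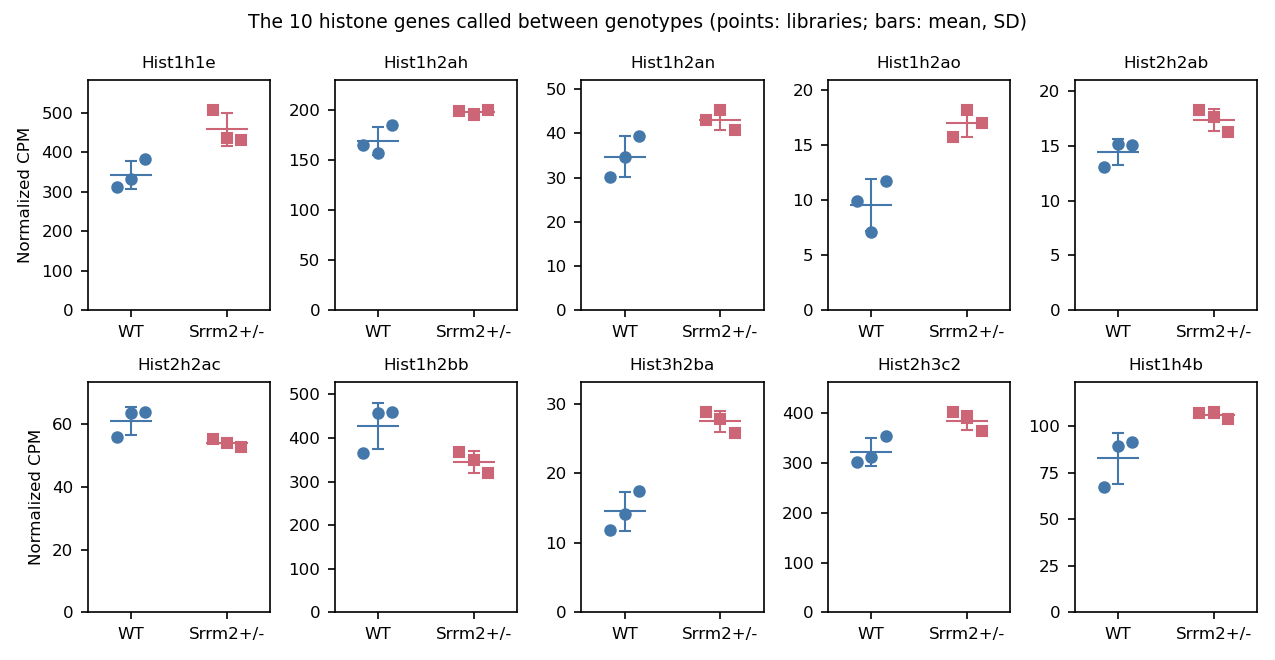
Normalized CPM in each library (points) with the mean and SD (bars) for the 10 histone genes called between WT and Srrm2+/-. Hist3h2ba and Hist1h2ao show the widest relative gaps, and Hist1h2bb is the sole called gene whose groups overlap.

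Calls were set beside features that could have shaped the counts. Of 25 genes with at least 50% own words, 2 were called higher (Hist1h1e and Hist3h2ba) and 1 lower (Hist1h2bb). Of 26 genes with 10% to 50%, 4 were higher and 1 lower, and of 12 genes with under 10%, 2 were higher and 0 lower. At a mean of at least 100 CPM, 3 of 43 genes were higher and 1 lower. Below 100 CPM, 5 of 20 were higher and 1 lower. H2A and H2B genes often lie head to head and share a promoter region, and 12 such pairs with starts 176 to 306 bases apart were tested. No H2B gene of these pairs was called, so in none of the 12 were both genes called. With 15.9% of the histone genes called, 12 pairs are too few for this to tell how paired genes behave. In the pair of Hist1h2ah and Hist1h2bk, for example, the log2 fold changes were 0.23 and -0.05.

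The replacement histones, most of which are also made outside S phase from polyadenylated mRNA, gave 1 higher and 2 lower of 11 genes. Their median log2 fold change was 0.01. H1f0, the linker histone of slowly dividing cells, rose by 0.20 on the log2 scale, and the macroH2A genes H2afy and H2afy2 fell by 0.23 and 0.52 on that scale. H2afz (H2A.Z), H3f3a and H3f3b (both H3.3) had log2 fold changes of -0.08, 0.01 and 0.09 and did not pass. Of 11 transcription regulators, 3 were lower and 0 higher. E2f1 and E2f2, which drive S phase genes, fell by 0.27 and 0.65 on the log2 scale, and Casp8ap2, a component of the histone locus body, fell by 0.23, while Npat stood at 92.7 ± 4.61 and 92.6 ± 0.914 CPM (SD, n = 3 each). Among 16 genes of histone 3′ end processing, Zfp473 (the U7 factor ZFP100) rose by 0.20 (log2) and the rest did not pass. Slbp had 127 ± 2.22 CPM in WT against 122 ± 5.42 CPM in Srrm2+/- (SD, n = 3 each, log2 fold change -0.06). Lsm11, a protein of the U7 snRNP, had a log2 fold change of -0.05. Of 14 decay genes, Tut1 rose by 0.24, and Lsm5 and Dcp2 fell by 0.22 and 0.34 (log2). Of 18 histone chaperones, Rbbp7 rose by 0.24, and Asf1b, which carries H3 and H4 to replication forks, had a log2 fold change of -0.02. These counts stand beside 13.6% of all genes tested that were called higher and 11.7% that were called lower.

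Genes of DNA replication were set beside the histone genes because both serve S phase. Of 31 tested, 9 fell and 0 rose, with a median log2 fold change of -0.07. Over all genes tested, 11.7% were called lower and 13.6% higher. Cdc45 of the replicative helicase went from 85.1 ± 2.30 to 67.3 ± 1.62 CPM (log2 fold change -0.34). Pola1, the catalytic subunit of DNA polymerase alpha, fell by 0.32 on the log2 scale, with a WT level of 330 ± 7.79 and an Srrm2+/- level of 264 ± 6.35 CPM (SD, n = 3 each for both genes). Pcna, the sliding clamp, fell by 0.18, and Mcm2 had a log2 fold change of 0.01 that did not pass. Of 21 genes of G2 and mitosis, 2 rose, Cdc20 by 0.47 and Plk1 by 0.45 on the log2 scale, and 0 fell.

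The labelled cell type was checked with its markers. For comparison, 13.6% of all genes tested were called higher and 11.7% lower. All 8 ES cell markers were tested, with summed levels of 5058 to 5241 CPM in WT and 4426 to 4537 CPM in Srrm2+/-, 5 lower and 1 higher. Of 8 fibroblast markers, 6 were tested and 4 were higher. Their sum was 3.47 to 3.68 CPM in WT and 6.94 to 10.8 CPM in Srrm2+/-, and Dcn and Lum did not pass the filter, with at most 4 counts in a library. Of 8 primitive endoderm markers, 6 were tested, 3 higher and 1 lower, with sums of 88.4 to 100.2 CPM in WT and 126 to 129 CPM in Srrm2+/-. Most of the sum was Sparc, with means of 36.5 CPM in WT and 72.3 in Srrm2+/-, and Lama1, which fell from 53.9 to 34.6. Col4a1 (1.71 to 18.1 CPM) and Dab2 (0.448 to 1.14 CPM) were also higher. Gata4 (0.949 to 0.946 CPM) and Gata6 (0.124 to 0.242 CPM) were not called. Sox17 and Foxa2 did not pass the filter, with at most 9 counts in a library. The part of these shifts in the histone values was not tested.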

How the data were processed

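Total RNA libraries (TruSeq Stranded total RNA kit, paired-end reads) of 3 WT and 3 Srrm2+/- samples were grouped by their titles. The authors pseudo-aligned reads with kallisto 0.46.1 to the GENCODE M24 mouse transcriptome and deposited estimated counts (not whole numbers) for each gene without normalization. Whether strand was used is not given in the sources used here. All 6 columns were used.

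Counts were rounded. Library totals lay between 54151532 and 69933465. Symbols, positions and transcripts came from GENCODE M21 on the same build, GRCm38, with coordinates counted from 1, and 42156 of 42450 identifiers matched. Genes past filterByExpr (minimum count 10, minimum total 15) were tested with the edgeR 4.0.16 quasi-likelihood F-test in R 4.3.3 (TMM, two-sided, genotype as the sole term, 6 libraries). P-values were adjusted by Benjamini-Hochberg over all genes tested, and a gene was called under 0.05. SE was the absolute log2 fold change divided by the square root of F. Normalized CPM used TMM-scaled totals. Every adjusted p is from this fit unless named otherwise. P-values set the genotype difference against the spread between these samples. The samples are batches of a single line per genotype, so spread between independent lines is not covered. Counts of any 2 libraries differed beyond sampling noise (lowest chi-square divided by its degrees of freedom, 14.7).

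Values per library are given for all H1 genes and, in each other class, for the 3 genes of highest level per transcript length, the 3 largest called changes, and genes called against the commoner direction. Level per length depends on the annotated length. Hist1h4d had the highest H4 CPM (means 1041 in WT and 1082 in Srrm2+/-), on a model of 1138 bases against 312 for Hist1h4k. Of the other lists, the genes of largest called change and a set of named factors are given. The members, lists and rules were chosen with earlier results of these data known. Words of 31 bases were compared on both strands of annotated transcripts. Promoter motifs were searched on both strands. DESeq2 1.42.0, limma 3.58.1 (voom) and other settings served as alternatives. The scripts were tested on simulated data. The replicate number was no term of the model, since the study used no covariate for total RNA. Same-numbered samples also did not deviate together.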

Additional observations from a re-analysis of the deposited data

How the results depend on the processing

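The directions of the called histone genes held in all alternatives, and each class median moved by less than 1 SD of the libraries. Hist1h1e, Hist1h2ao and Hist3h2ba were called in all 16 alternative fits, Hist1h4b in 13 and the other 6 in 7 to 11. Histone genes called higher fell to 4 with libraries scaled by summed histone counts (chosen after seeing the data), 3 at an adjusted p under 0.01 and 0 with a log2 change of 1 or more in either direction. Genes called lower were 1 with limma voom, 1 with a filter of at least 1 count, 1 with scaling by histone counts, 0 at the stricter p and 0 with the size limit. The calls over all genes were 2467, 2779 and 1153 under scaling by histone counts, the stricter p and the size limit. Leaving out 1 library gave 3 to 10 higher and 0 to 7 lower histone genes, with 3515 to 4122 genes called in all. DESeq2 called 11 histone genes, adding Hist1h2bn as lower. The cause of these shifts was not tested, except that the stricter rules keep a subset of calls by construction.

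With the replicate number as a block (replicate block), 6 histone genes were higher and 0 lower, and 4166 genes were called in all. Deviations of same-numbered WT and Srrm2+/- samples correlated at -0.03 for each number over all genes, and at -0.74, -0.57 and -0.39 over the histone genes alone for numbers 1, 2 and 3. No correlation was positive, which does not show that same-numbered samples have nothing else in common. No histone genes had identical counts, so counting copies once changed nothing. Scaling without histone genes gave the same 10 calls. Depth limits the lowest genes, such as Hist1h4m, whose 95% interval ran from -0.89 to 1.56.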
